A study of Mus musculus with 4 samples.

Results

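Epithelial identity was followed in whole mouse embryos at embryonic day 9.5 through 10 genes: Epcam, Cdh1, Grhl2, Grhl3, Trp63, Esrp1, Cldn6, Cldn7, Spint1 and Spint2. They were chosen by name as genes of the surface ectoderm and of epithelia in general, out of 18193 genes on an Affymetrix expression array. All 10 were measured, by 18 of the 45037 probe sets tested, a probe set being the group of short probes that gives 1 value for a transcript. One group was null for Cop1, an E3 ubiquitin ligase gene, and the control group, titled wild type, held +/+ and +/- embryos. RNA of 6 embryos was mixed into 1 pool per group, and each pool was divided into 2 portions that went onto separate arrays, 4 arrays in all. The 2 arrays of a group are therefore portions of 1 RNA pool. Every SD, interval and p-value below measures the spread between such portions, with no replicate check of the genotype, and precision is limited by the number of arrays.

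At this stage a single-layered surface ectoderm covers the embryo and the gut tube is epithelial. The embryo also holds neural tube, mesenchyme, heart and blood. Epithelial cells hold together through adherens junctions built on E-cadherin and seal their borders with tight junctions made of claudins. Grainyhead-like and p63 transcription factors maintain this state, the splicing factor ESRP1 sets the epithelial forms of many transcripts, and Kunitz-type inhibitors restrain membrane proteases of the matriptase family. In RNA of a whole embryo, fewer epithelial cells and less RNA per cell cannot be told apart.

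None of the 10 members rose or fell in embryos lacking Cop1. The words rose and fell are kept for genes with an adjusted p under 0.05 in limma and a difference of at least 1.5-fold, 0.58 log2 units. The brightest probe set, by the mean of 4 arrays, stood for each gene. Under this rule 0 of the 10 genes were called, against 11.6% of all genes, and 0 of the 18 probe sets, against 13.7% of all probe sets. In the same fit 3 of the 10 genes had an unadjusted p under 0.05 (limma), against 8059 of all 18193 genes. So did 4 of the 18 probe sets, against 19350 of all 45037. The median difference, null minus control, was -0.07 log2 units over the 10 genes and -0.02 over all genes. The median size of the difference was 0.11 for the members and 0.18 for all genes.

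The intervals of most members, which cover only the spread between portions, were narrow. The 95% interval of the difference (limma) lay within 1.5-fold either way for 7 of the 10 genes, as it did for 74.5% of all genes. Grhl3, Cldn7 and Cldn6 were the 3 members whose interval reached past the fold limit on the lower side. Over probe sets the interval lay within the limit for 15 of 18, against 71.4% of all probe sets. For all 10 genes the 2 null arrays lay wholly above or wholly below the 2 control arrays, 3 above and 7 below, as they did for 68.2% of all genes (28.9% above and 39.3% below). Over probe sets this held for 12 of 18, against 65.3%.

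**Figure D1:**
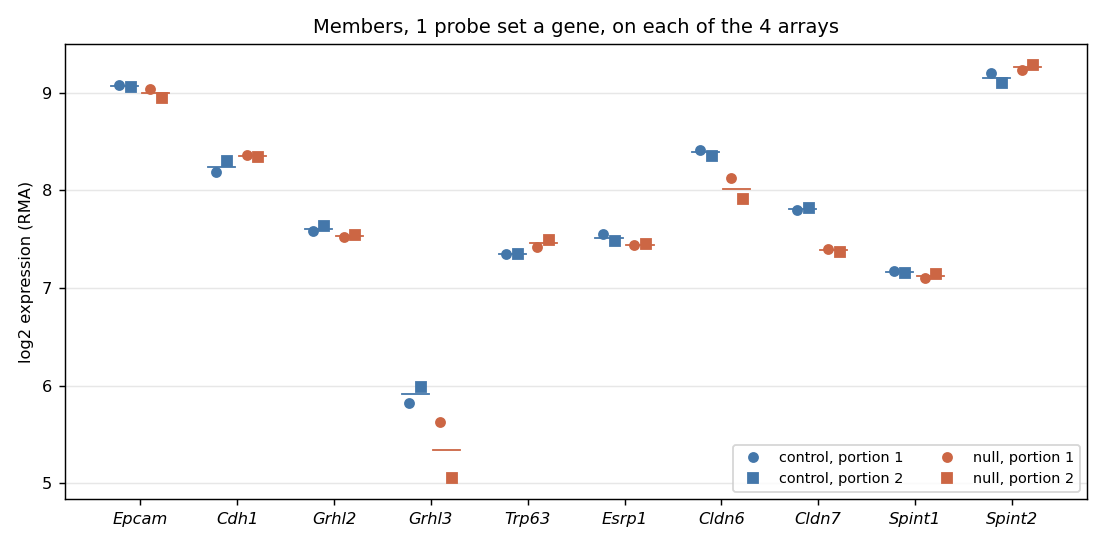
Log2 expression (RMA) of the 10 members on each array, 1 probe set a gene. Circles are portion 1 and squares portion 2 of the control pool (blue) and the null pool (orange), and short lines are the means of 2 portions. Cldn7 and Cldn6 show a clear gap between pools, and Grhl3 shows wide scatter between the null portions.

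Cdh1 and Epcam encode the adhesion molecules that define epithelial cells, E-cadherin in adherens junctions and the glycoprotein EpCAM on the lateral membrane. The only Cdh1 probe set, 1448261_at, read 8.19 and 8.30 in control RNA, 8.36 and 8.34 in null RNA (log2 expression). The null arrays were slightly higher without overlap, and the difference was 0.11 (SE 0.07, 95% interval -0.08 to 0.29, limma adjusted p = 0.324). Epcam gave control values of 9.08 and 9.06 and null values of 9.04 and 8.95 at 1416579_a_at. The difference of -0.07 (95% interval -0.25 to 0.10, adjusted p = 0.471, limma) was smaller than the gap of 0.09 between the null portions. The other Epcam probe set, 1447899_x_at, whose suffix marks probes shared with other sequences, overlapped between groups and differed by -0.03. A change of 1.5-fold lay outside the interval for both genes.

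Grhl2 and Grhl3 encode grainyhead-like transcription factors, which activate junction genes and are needed for closure of the neural tube. Grhl2 read 7.58 and 7.64 in control RNA, 7.52 and 7.54 in null RNA at its brightest probe set, 1427046_at. That is a difference of -0.08 (SE 0.06, 95% interval -0.25 to 0.08, limma adjusted p = 0.393). Its other 3 probe sets differed by 0.02, -0.09 and 0.17, each with overlapping groups. The 4 Grhl2 probe sets thus showed no common direction.

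Grhl3 had the largest difference among the members and the least certain one. Its only probe set, 1436932_at, gave control values of 5.82 and 5.99 and null values of 5.63 and 5.05. Both null values were the lower ones, but they lay 0.58 apart, about as far as the means of the 2 pools. The control mean was 5.91 ± 0.12 and the null mean 5.34 ± 0.41 (log2, SD, n = 2 portions). The difference of -0.57 (SE 0.20, 95% interval -1.10 to -0.03) missed both limits (limma, adjusted p = 0.10). Without null replicate 1 it passed both, at -0.86 (limma, adjusted p = 0.028), and without null replicate 2 it was -0.27. It was the dimmest representative probe set of the members, with a mean level at percentile 43.5 of all probe sets, and the other 9 lay at percentile 63.9 or above. Among all genes, the 3 whose centred values over the 4 arrays lay closest to those of Grhl3 were Myoz2, Tcerg1l and Has3, at root mean square distances of 0.027, 0.037 and 0.052 log2 units. Their null portions lay 0.55 to 0.63 apart, which follows from choosing them by these same values.

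Trp63 encodes p63, the factor that commits surface ectoderm to stratified epithelium. At its brightest probe set, 1418158_at, it read 7.35 and 7.35 in control RNA, 7.42 and 7.49 in null RNA. The difference was 0.11 (SE 0.06, 95% interval -0.06 to 0.28, limma adjusted p = 0.278). A second probe set, 1451876_a_at, gave control values of 6.12 and 6.09 and null values of 6.38 and 6.43, with no overlap. It was higher by 0.30 (95% interval 0.14 to 0.47, 1.23-fold), which passed the adjusted p alone (limma, adjusted p = 0.0232) and lay under the fold limit. It missed limma's adjusted p with the replicate block (0.0505) and when any 1 array was left out. With 1 array left out its difference stayed at 0.27 to 0.33, at an SE of 0.08 to 0.09 against 0.06. Over all alternatives the difference at 1451876_a_at ranged from 0.07 to 0.33. The remaining probe sets differed by 0.16 and 0.08, so all 4 for Trp63 were positive, and 1 of them overlapped between groups. Which transcript forms each one detects was not examined here.

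Esrp1 encodes the RNA-binding protein that directs epithelial splicing, as of the FGF receptor 2 transcript. Its probe set, 1454681_at, read 7.55 and 7.48 in control RNA, 7.44 and 7.45 in null RNA. The null values were lower without overlap, at a difference of -0.07 (SE 0.06, 95% interval -0.24 to 0.09, limma adjusted p = 0.457).

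Cldn6 and Cldn7, which encode tight junction claudins of embryonic and simple epithelia, were the members whose brightest probe sets passed limma's adjusted p without reaching the fold limit. Cldn7 gave control values of 7.80 and 7.82 and null values of 7.40 and 7.37 at 1448393_at. Both pools were tight, with gaps of 0.03 and 0.04 between portions, and the null arrays lay lower without overlap, at a difference of -0.43 (SE 0.06, 95% interval -0.59 to -0.26). This is 1.34-fold, under the fold limit, and it passed the adjusted p alone (limma, adjusted p = 0.00786). Cldn6 read 8.42 and 8.35 in control RNA, 8.13 and 7.91 in null RNA at 1417845_at. It differed by -0.37 (SE 0.10, 95% interval -0.62 to -0.12, 1.29-fold, limma adjusted p = 0.0426), again with no overlap and under the fold limit.

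By the adjusted p alone, 2 of 10 members were therefore lower and 0 higher, whereas 33.9% of all genes passed that rule, 21.8% as lower and 12.0% as higher. Over probe sets 3 of 18 passed it, against 32.7%. Both claudins missed limma's adjusted p in some fits with 1 array left out. Such fits hold fewer arrays for every gene, so a miss need not mean dependence on that array. Cldn7 missed it without control replicate 2 or null replicate 2. Its difference stayed at -0.44 to -0.41 with any 1 array left out (SE 0.08 against 0.06). Over all alternatives the Cldn7 difference ranged from -0.66 to -0.38. Cldn6 missed the adjusted p without control replicate 1 (-0.33), control replicate 2 (-0.41) or null replicate 2 (-0.26). It also missed with quantile normalization applied once more (limma, adjusted p = 0.0783). Its difference ranged from -0.60 to -0.26, so both claudins stayed lower under every alternative run. The genes closest to Cldn7 over the 4 arrays were Mrps18b, Timm9 and St6gal1, at distances of 0.005, 0.005 and 0.007. Within 0.1 of Cldn7 lay 2575 of 18193 genes, and within 0.1 of Grhl3 lay 17. That distance also admits differences smaller or larger than that of Cldn7, so the count is of genes only roughly like it.

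Spint1 and Spint2 encode the Kunitz-type inhibitors HAI-1 and HAI-2, membrane proteins that block matriptase, prostasin and the activator of hepatocyte growth factor. Spint1 gave control values of 7.17 and 7.15 and null values of 7.10 and 7.14 at 1416627_at. The difference of -0.04 (SE 0.06, 95% interval -0.20 to 0.12, limma adjusted p = 0.664) was the smallest of the 10. Spint2 read 9.20 and 9.10 in control RNA, 9.24 and 9.29 in null RNA at 1451935_a_at. It differed by 0.12 (95% interval -0.06 to 0.30, limma adjusted p = 0.269), and its second probe set, 1438968_x_at, by -0.02 with overlapping groups. For both inhibitors a 1.5-fold change in either direction lay outside the interval.

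**Figure D2:**
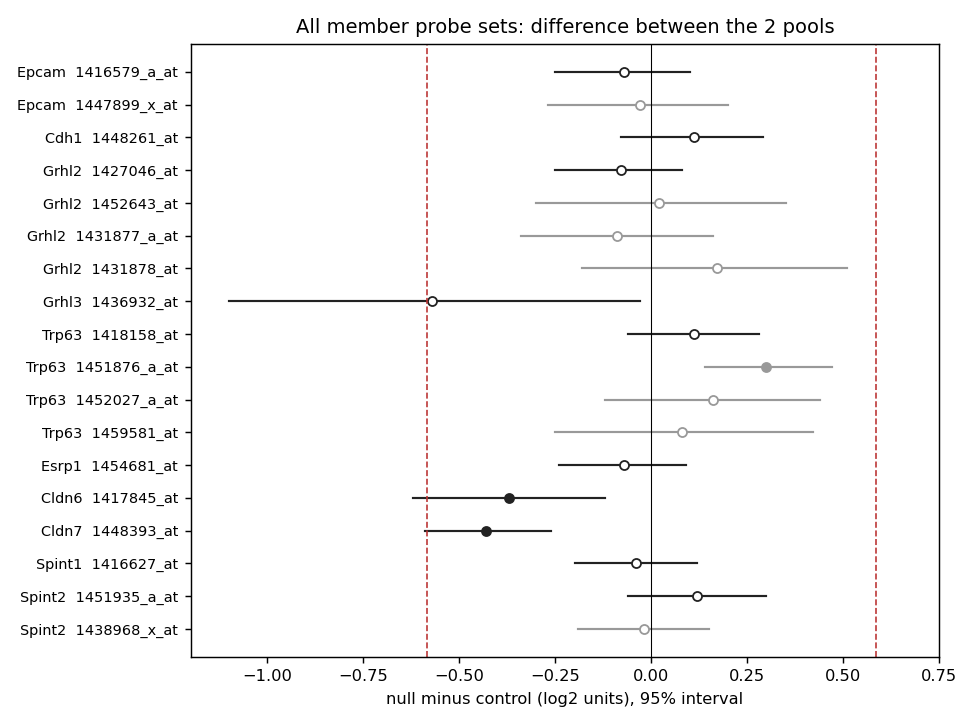
Null minus control in log2 units for all 18 member probe sets, with 95% intervals from limma. Black marks each gene's brightest probe set and grey the others, filled points passed the adjusted p alone, and dashed lines mark 1.5-fold. Cldn7 (-0.43), Cldn6 (-0.37) and 1 Trp63 probe set (0.30) are filled, and the Grhl3 interval is the widest.

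**Figure D3:**
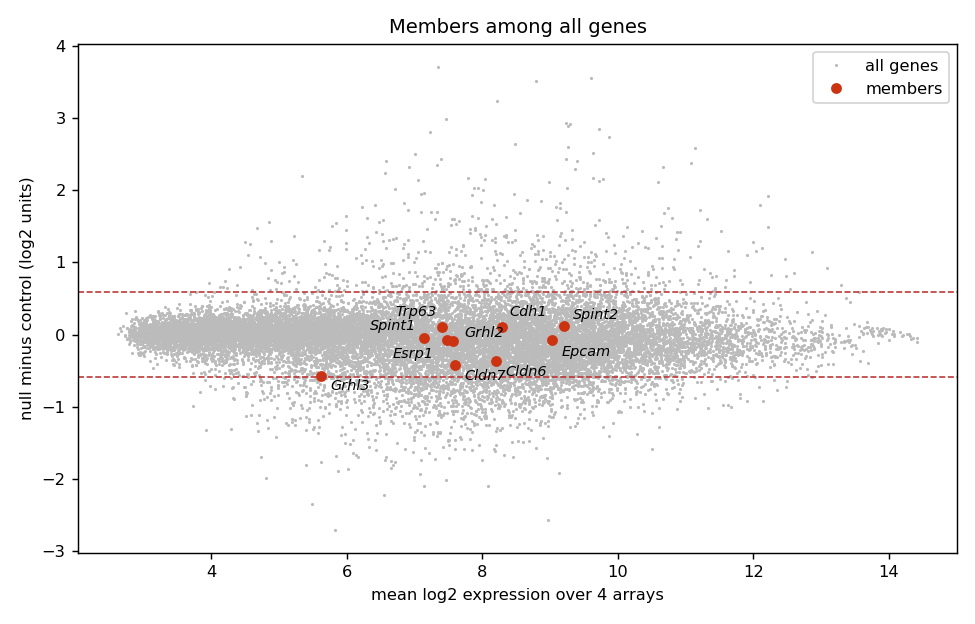
Mean log2 expression over the 4 arrays against null minus control for all genes (grey) and the 10 members (red), with dashed lines at 1.5-fold. All 10 members lie between the lines, Grhl3 at -0.57 closest to one.

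Promoter sequence is shown for 4 members, the 3 with the lowest values in the null pool relative to control (Grhl3, Cldn7 and Cldn6) and Epcam, which differed by -0.07. Each run holds the 250 bases before the transcription start, 5′ to 3′ on the strand of the gene, from RefSeq on GRCm38.p6. The Cldn6 run is chr17:23679115-23679364 (+), the Cldn7 run chr11:69965171-69965420 (+), the Grhl3 run chr4:135573633-135573882 (-) and the Epcam run chr17:87635729-87635978 (+). Capitals mark CACCTG or its reverse complement CAGGTG, the E-box that repressors of the SNAIL and ZEB families can bind.
Cldn6: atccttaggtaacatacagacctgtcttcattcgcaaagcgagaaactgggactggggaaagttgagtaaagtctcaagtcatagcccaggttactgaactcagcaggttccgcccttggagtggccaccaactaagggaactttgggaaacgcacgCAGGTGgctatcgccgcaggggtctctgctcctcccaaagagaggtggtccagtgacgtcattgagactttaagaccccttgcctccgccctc
Cldn7: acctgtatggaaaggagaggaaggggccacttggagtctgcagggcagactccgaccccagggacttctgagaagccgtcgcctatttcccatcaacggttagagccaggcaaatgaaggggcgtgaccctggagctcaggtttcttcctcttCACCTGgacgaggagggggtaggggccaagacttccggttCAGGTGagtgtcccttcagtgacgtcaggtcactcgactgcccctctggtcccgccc
Grhl3: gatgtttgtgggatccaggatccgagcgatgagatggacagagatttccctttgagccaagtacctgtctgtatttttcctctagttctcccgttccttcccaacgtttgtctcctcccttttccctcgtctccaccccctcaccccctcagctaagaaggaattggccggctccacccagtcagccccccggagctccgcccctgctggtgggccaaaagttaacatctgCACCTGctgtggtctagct
Epcam: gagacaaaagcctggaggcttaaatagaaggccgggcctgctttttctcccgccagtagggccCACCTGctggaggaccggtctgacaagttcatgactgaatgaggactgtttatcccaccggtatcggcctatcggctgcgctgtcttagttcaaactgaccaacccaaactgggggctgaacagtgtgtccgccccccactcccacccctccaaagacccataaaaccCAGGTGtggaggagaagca
The RefSeq table held windows from 250 bases before to 50 after the start for 6 of the 10 members, Cldn7 with 2 windows, and none for Cdh1, Grhl2, Trp63 and Esrp1. CACCTG, searched on both strands, was in 5 of the 7 windows, those of Cldn6, Cldn7, Grhl3, Epcam and Spint2, and in 20.2% of all 32851 windows. In Cldn6 and Grhl3 a further match lay after the start, outside the printed run, and the other Cldn7 window held none. The grainyhead motif AACCNGTT was in 0 of the 7 windows and in 2.09% of all windows. The AP-1 motif TGANTCA was in 1 window, starting 6 bases before the start of Spint1, and in 7.81% of all windows. No match overlapped one of another motif. Of the 5 members with an E-box, 4 read lower in the null pool at their brightest probe set. Spint2, with 3 matches, read higher, and none of the 5 was called. Spint1, with a window but no E-box, also read lower (-0.04). Lower readings were found for 7 of all 10 members and 9847 of 18193 genes. Any link between the motif and these differences was not tested.

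The scaling of the arrays bears on the lower members. With each array centred on its poly-A spikes, RNAs added before labelling, the median of all genes moved from -0.02 to -0.26 and that of the members to -0.31. The spike medians were 7.399 and 7.635 on the control arrays, 7.67 and 7.83 on the null arrays, so the control portions differed by about as much as the pools did. With that scaling Grhl3 (-0.80), Cldn7 (-0.66) and Cldn6 (-0.60) passed both limits as lower. The brightest probe sets of Cdh1, Spint2 and Trp63 turned from slightly positive to -0.13, -0.12 and -0.13. All probe sets of an array receive the same shift, so the offset between the control portions enters the spread of every gene. Adjusted p-values and calls with that scaling are therefore not comparable with those of the values as deposited. Among all genes that scaling gave 3567 calls of which 9.87% were higher, against 2119 calls and 30.8% with the values as deposited. Relative to the median of all genes, the members' median lay lower by a similar small amount with both scalings.

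The other genes of the members' pathways, grouped in 7 lists by function, held 7 calls among 72 measured genes. Of these genes 6 rose and 1 fell, while 3.58% of all genes rose and 8.06% fell. The median difference was 0.07 over the 72 genes and -0.02 over all genes. Poly-A spike centring gave 3 higher and 5 lower of the 72 genes, and 352 higher and 3215 lower of all 18193 genes. The median with that scaling was -0.16, against -0.26 for all genes. Afdn (0.40), Klf5 (0.37) and Snai2 (0.36) lost their calls there, and Cldn8, Cldn23, Tcf3 and Tcf4 were called lower. With the arrays shifted to the same median Afdn (0.57), Klf5 (0.54) and Snai2 (0.53) lay under the fold limit.

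In adherens junctions, 2 of 10 genes rose and 0 fell, with a median of 0.15. Nectin2, a cell adhesion molecule of the nectin family, gave control values of 8.55 and 8.62 and null values of 9.56 and 9.63, a rise of 1.01 (SE 0.07, limma adjusted p = 0.00121). Its other probe set differed by -0.30 (limma, adjusted p = 0.0202), so that the probe sets of Nectin2 disagreed in sign. Afdn, the gene of the nectin-binding protein afadin, rose by 0.64 (adjusted p = 0.00372, limma), and its other probe set differed by 0.09. Without null replicate 1 Afdn lay just under the fold limit, at 0.58.

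In tight junctions 0 of 15 measured genes were called, with a median of 0.04. By limma's adjusted p alone 3 of the 15 passed, against 33.9% of all genes. The largest differences were 0.55 for F11r, which encodes the junctional adhesion molecule JAM-A (limma, adjusted p = 0.0046), and -0.52 for Cldn8, another claudin gene (adjusted p = 0.0618). F11r read 8.88 and 8.79 in control RNA, 9.39 and 9.39 in null RNA, without overlap. It passed the fold limit without control replicate 1, at 0.60, and Cldn8 passed both limits there, at -0.73.

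Among 8 desmosome genes 1 rose and 0 fell, with a median of 0.04. Pkp2, the gene of the desmosomal plaque protein plakophilin 2, which heart muscle also makes, gave control values of 8.30 and 8.33 and null values of 9.89 and 9.90. It rose by 1.58 (SE 0.06, limma adjusted p = 0.000626). Of its other 3 probe sets 1 also rose, by 1.55, and the others differed by 0.41 and 0.90 without a call. The other 7 desmosome genes were not called.

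Membrane proteases and their targets held 1 rise among 8 measured genes, with a median of 0.07. Hgf, the growth factor whose activation the SPINT proteins restrain, read 5.84 and 5.89 in control RNA, 6.81 and 6.95 in null RNA. It rose by 1.02, or 2.02-fold (SE 0.08, limma adjusted p = 0.00148), and 1 of its other 2 probe sets rose by 0.70 while the last differed by -0.06. The matriptase gene St14 differed by 0.12 and the prostasin gene Prss8 by 0.00, both named after their values were seen.

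Epithelial factors gave 1 rise among 15 measured genes, with a median of 0.12. Klf5, a zinc finger factor gene, differed by 0.60 (SE 0.14, limma adjusted p = 0.03), with its control portions 0.36 apart, and its other 2 probe sets differed by -0.02 and 0.22 without a call. It missed the limits without control replicate 1 (0.42), null replicate 1 (0.68, adjusted p = 0.091, limma) or null replicate 2 (0.52). Of 8 repressors of epithelial genes 1 rose, with a median of 0.10, and 4 were positive and 4 negative. By limma's adjusted p alone 3 of the 8 were higher and 2 lower, against 12.0% and 21.8% of all genes. The 2 lower ones, Tcf3 (-0.52) and Tcf4 (-0.42), lay under the fold limit. Snai2, which encodes the zinc finger repressor SLUG, rose from 10.17 and 10.12 to 10.72 and 10.77, by 0.60 (SE 0.06, limma adjusted p = 0.00354), and its other probe set differed by 0.45. Snai2 lay under the fold limit, at 0.57, without control replicate 2 or null replicate 2.

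In mesenchymal adhesion and matrix 1 of 8 genes fell and 0 rose, with a median of 0.11. Cdh6, a cadherin gene of kidney and neural crest precursors, read 8.25 on both control arrays and 7.36 on both null arrays, so that it fell by 0.89 (SE 0.06, limma adjusted p = 0.00125). Its other probe set differed by 0.01, and without control replicate 2 that one stood for the gene, which then had no call. When each gene was represented by the mean of its probe sets, 2 of the 72 genes were called, Pkp2 and Fn1.

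**Figure D4:**
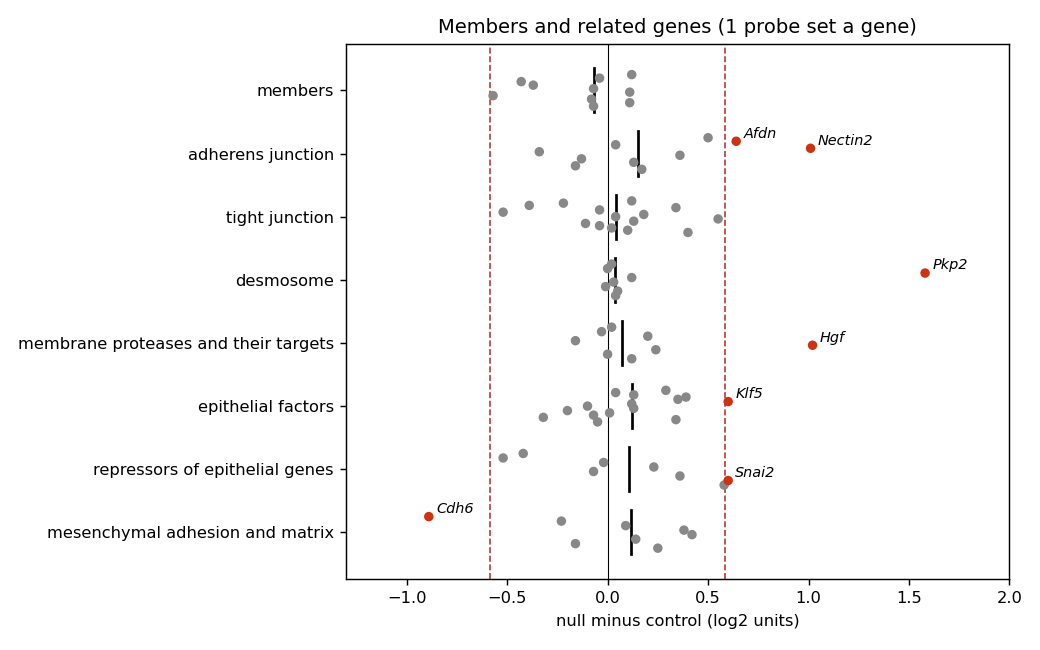
Null minus control in log2 units for the members and the genes of 7 related lists, 1 probe set a gene. Red points with names passed limma's adjusted p and the 1.5-fold limit (dashed), grey points did not, and black bars are list medians. No member is red, and the named points are the 7 calls of the related lists.

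Markers of tissues that carry epithelium moved in both directions beside these values. In the surface ectoderm list 3 of 7 markers were called. Krt18 (0.87) and Krt8 (0.78), the keratins of simple epithelia, rose and Krt14 (-1.01), a basal keratin, fell. Krt14 was dim, with a mean level at percentile 36.4 of all probe sets. Of its other 2 probe sets 1 also fell (-0.78) and 1 differed by -0.05 without a call. The summed level of the list, on the linear scale, was 2349 to 2402 on the control arrays and 3728 to 3754 on the null arrays, and Krt8 and Krt18 made up 67.4% of the control sum. With spike centring Krt8 lay under the fold limit, at 0.54. The median difference of the list was 0.35, with 5 markers positive and 2 negative. In the list for visceral endoderm and yolk sac Ttr (-1.53) and Afp (-1.01) fell and Cubn (1.45) rose, 3 of 8 markers. With either null array left out, Cubn had differences of 1.42 and 1.48 and missed the adjusted p in limma (0.081 and 0.0802). The sum of the list was 4618 to 4765 in the control portions and 2562 to 2585 in the null portions, and Afp alone made up 78.2% of the control sum. The median difference of the list was 0.02, with 4 markers positive and 4 negative. In the gut endoderm list 1 of 6 markers rose, Sox17 (1.23), also an endothelial gene, and 3 were positive and 3 negative. The sums of that list were 1807 to 1841 in the control portions and 1715 to 1731 in the null portions. Shh, which differed by -0.40 without a call, made up 65.6% of the control sum. In the trophoblast list 0 of 3 measured markers of 6 were called, with sums of 147 to 156 and 134 to 136. RMA assigns no value of 0, so no marker was at 0, and the part of these tissues in the values of the members was not tested.

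For the arrays as a whole, Cop1 at its only named probe set fell by 1.58 log2 units, from 11.35 and 11.26 to 9.67 and 9.77 (limma, adjusted p = 0.000728). Its place relative to the deletion was not examined here. As a check of the labelled tissue, the brightest markers of heart, blood and neural tube lay at percentiles 96.6, 100 and 96.8 of all probe sets, and the somite gene Tcf15 at percentile 82.0. In heart, blood and neural tube 0 of 4, 0 of 3 and 1 of 4 markers were called. The neural tube call was a fall of Nes (-0.64), whose other probe sets differed by -0.15 and -0.16 without a call. All 4 neural tube markers were negative. In the somite and mesenchyme list 2 of 5 were called, Tcf15 as a fall (-0.64) and Prrx1 as a rise (1.51). Prrx1 had 3 other probe sets called in the opposite direction. Of 3 endothelial markers 2 rose, Kdr (0.74) and Pecam1 (0.72). With spike centring both lay under the fold limit, at 0.51 and 0.48. The control probe sets for the 3′ and 5′ ends of Gapdh read 13.97 to 13.99 and 13.97 to 14.04 on the control arrays, and 14.12 to 14.15 and 14.17 to 14.19 on the null arrays. The median of all probe sets was 6.03 on both control arrays, 6.10 and 6.09 on the null arrays.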

How the data were processed

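Biotin-labelled cRNA of total RNA from whole embryos was hybridised to 4 arrays. The authors deposited log2 expression values. Per the submitters' processing notes these came from RMA (affy), of a version not given in the sources used here. This method gives all arrays a common intensity distribution, so a change in total RNA per embryo leaves no trace. The values were used as deposited. Of 45101 probe sets, 64 Affymetrix controls were left out. The platform annotation names 1 gene for 34945 of the 45037 tested probe sets, several for 932 and none for 9160, and gene numbers of all 10 members matched RefSeq symbols on GRCm38.p6.

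Null minus control was fitted on all tested probe sets with limma 3.58.1 in R 4.3.3 (lmFit, eBayes), and adjusted p-values are Benjamini-Hochberg over that table. Intervals use 4.84 degrees of freedom, 2 from the arrays and the rest from the prior. The fit was tested on simulated data. No probe set was filtered. Where 1 array is left out, the lone array of its group is assumed to vary like the other pair.

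The text names all members, Cop1, up to 4 called genes of each list or otherwise the 2 with the greatest difference, and the 3 genes most like each of the 2 members with the greatest difference. Of the heart, blood, neural tube, somite, endothelial and trophoblast lists it gives counts and names the called markers. Some further genes of the lists were named after their values were seen. Members, lists and tests were chosen with earlier results of these data known. Alternatives left out each array and changed the scaling, the filter on dim probe sets, the prior, the fold limit, the probe set rule and the replicate term.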

Additional observations from a re-analysis of the deposited data

How the results depend on the processing

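The members called were 0 genes and 0 probe sets with the values as deposited, and 0 of each with the replicate block, the arrays shifted to the same median, quantile normalization applied once more, the dimmest 40% of probe sets left out, a prior variance that follows the mean, or a fold limit of 2. The mean of a gene's probe sets also gave 0 genes. Leaving out 1 array gave 0 to 1 called genes and 0 to 1 called probe sets, the 1 being Grhl3 without null replicate 1. Poly-A spike centring gave 3 genes and 3 probe sets. The adjusted p alone (limma) gave 2 genes and 3 probe sets. The 7 related calls became 24 of 72 genes with the adjusted p alone, where 33.9% of all genes passed. They numbered 4 with arrays at the same median, 3 with a fold limit of 2 and 2 with the mean of a gene's probe sets. With spike centring they were 8, of which 3 were higher and 5 lower, against 6 higher and 1 lower as deposited. Among all genes 352 were higher and 3215 lower with that scaling, against 652 and 1467 as deposited. The 2119 calls among all genes became 3567 with spike centring, 6165 with the adjusted p alone and 561 with a fold limit of 2. Apart from constructions that change the limits or the number of probe sets, the cause was not tested.

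Signs turned at member probe sets near 0. Leaving out 1 array gave Grhl2 -0.11 to 0.16 at 1452643_at and -0.20 to 0.01 at 1431877_a_at, Spint2 -0.05 to 0.01 at 1438968_x_at, Epcam -0.14 to 0.07 at 1447899_x_at and Trp63 -0.09 to 0.25 at 1459581_at. With the same median Grhl2 read -0.04 at 1452643_at, and with quantile normalization once more it read -0.04 there and Spint2 0.05 at 1438968_x_at. With spike centring Cdh1 read -0.13, Grhl2 -0.21 and -0.07 at 1452643_at and 1431878_at, Trp63 -0.13, -0.07 and -0.15 at 1418158_at, 1452027_a_at and 1459581_at, and Spint2 -0.12 at 1451935_a_at.

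The replicate numbers count portions of a pool, and the deviations of portion 1 from the group means correlated at 0.0563 between groups over probe sets. The replicate block gave 2102 calls among all genes, 0 among the members and 7 among the related genes. Signal over background is not known for single probe sets, as no detection call was used here.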
